A study of Mus musculus with 18 samples.

Results

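Disease-associated microglia (DAM) are the state that microglia, the resident macrophages of the brain, take up around amyloid plaques and in other neurodegeneration. The state is defined by a set of genes for lysosomal and secreted proteins, lipid enzymes and surface receptors that rise while homeostatic microglial genes fall, and its full form is known to require TREM2, a lipid-sensing receptor of microglia. The 10 markers described here, Cst7, Spp1, Lgals3, Lpl, Clec7a, Axl, Itgax, Cd9, Cd63 and Gpnmb, were found by gene symbol among the 54532 genes of the deposited count table, and all 10 passed the count filter that left 13267 genes for testing. They were picked as markers that do not move together when tau fibrils are added. The disunity itself is therefore a description of how they were chosen and not a result. The counts of members called with tau, or for a difference in tau response, carry the same limit when set beside the share of all genes.

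RNA was sequenced from primary mouse microglia of newborn pups (postnatal day 0 to 3), isolated after 10 days in mixed culture. The 6 groups of 3 libraries were R47H/+ cells (labelled hTrem2 R47H/+, the Alzheimer-linked R47H form of TREM2 on 1 allele) with the Akt inhibitor MK-2206 at 1 uM and 0N4R tau fibrils at 1 ug/ml, R47H/+ cells with MK-2206, R47H/+ cells with tau, R47H/+ cells with neither, Trem2+/+ cells with tau, and Trem2+/+ cells with neither. All cells went through a 6 h pre-treatment before tau, with 0.01% DMSO where MK-2206 was left out. Whether cells with MK-2206 also had DMSO is not given, so the MK-2206 comparisons may also carry a difference in DMSO. The time in tau, and whether replicates came from separate cultures or pooled pups, are not given in the sources used here, so the p-values rest on the spread among these libraries alone, and that spread may be technical.

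The libraries held 16288531 to 20686299 counts, of which the 10 members took 1.84% to 4.18%. Trem2 measured 153.8 to 183.4 CPM in R47H/+ cells with MK-2206 and tau and 502.7 to 551.4 CPM in R47H/+ cells with MK-2206, where CPM is the count per 1e+06 counts of the scaled library total. It measured 128.2 to 243.0 CPM in R47H/+ cells with tau and 451.2 to 489.1 CPM in R47H/+ cells. In Trem2+/+ cells it measured 375.3 to 480.7 CPM with tau and 935.0 to 1894 CPM without. Whether reads from the allele labelled hTrem2 were counted under the mouse gene was not tested, so the R47H/+ values may not cover both alleles. No group carried an hTrem2 allele without R47H, so the genotype comparisons cannot tell the R47H form from the hTrem2 allele itself. The 10 microglia markers summed to 3860 to 5143 CPM in every library, with Csf1r among the highest and Tmem119, a marker of mature microglia, at 2.53 CPM or less. Neuron markers summed to 3.75 CPM at most and fibroblast and vessel markers to 2.93 CPM at most, with the vessel marker Cldn5 at 0 in every library. Astrocyte markers summed to 54.6 to 106.3 CPM. Border macrophage, monocyte and granulocyte markers summed to 990.4 to 2085 CPM, mostly Mrc1, Pf4 and Ms4a7, while Lyve1 stayed at 0.0574 CPM or less and S100a9 was at 0 in every library. In 2 libraries, Trem2+/+ replicate 3 and R47H/+ with tau replicate 2, short genes were high and long genes low against the other replicates, by -1.27 and -0.60 log2 CPM for each 10-fold step in length. The same slope lay between -0.10 and 0.19 in the remaining 16 libraries. The log2 changes called for the members are therefore also given without both of these length-shifted libraries.

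The shift reached the members in both directions. Trem2+/+ replicate 3 held 2.54 times the Cd63, 2.30 times the Cst7, 2.22 times the Lgals3, 1.88 times the Spp1 and 1.69 times the Cd9 of the mean of the other replicates of its group. It held only 0.494 times the Itgax, 0.552 times the Axl and 0.630 times the Gpnmb. These 3 and Lpl are the 4 longest members in the table's gene length. Clec7a and Lpl stood at 1.22 and 1.15 times. In R47H/+ with tau replicate 2 the ratios lay between 0.789 for Axl and 1.60 for Cd63.

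**Figure D1:**
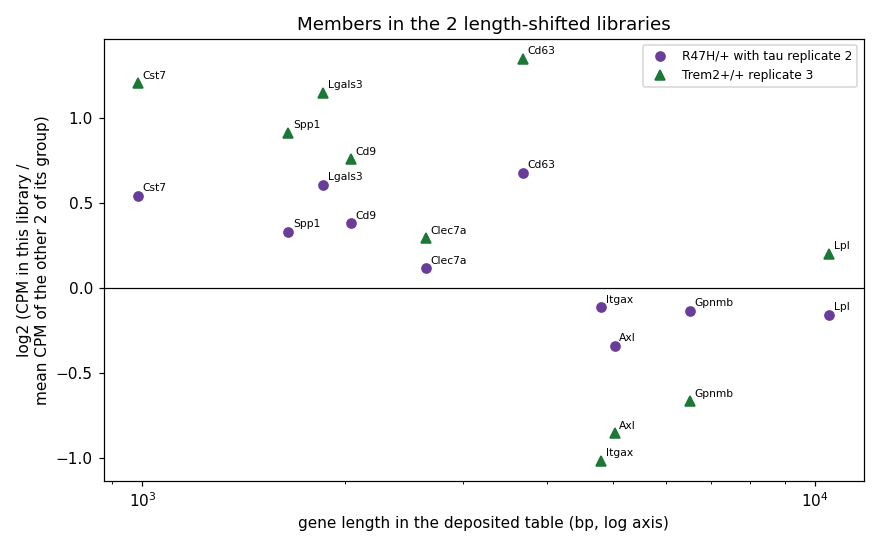
Each point is 1 member in 1 of the length-shifted libraries, placed by gene length (bp, log axis) and by the log2 ratio of its CPM to the mean CPM of the other replicates of its group; triangles are Trem2+/+ replicate 3 and circles R47H/+ with tau replicate 2. Itgax, Axl and Gpnmb lie below 0 and Cd63, Cst7, Lgals3, Spp1 and Cd9 above 0 in both libraries.

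Set against gene length, the members differed widely in level. On the RPKM scale (CPM per kilobase of the table's gene length), Spp1, which encodes the secreted phosphoprotein osteopontin, was the highest of the 10 in every group mean, between 1611 and 7419 RPKM. Lgals3, the secreted sugar-binding protein galectin-3 that also gathers on damaged lysosomes, and Gpnmb, a transmembrane glycoprotein of the endolysosomal system, took the next places in every group, at 909.8 to 2420 and 1307 to 2448 RPKM. Clec7a came next throughout. Cst7, which encodes cystatin F, an inhibitor of lysosomal cysteine proteases, ranged widely, up to 140.8 RPKM in R47H/+ cells with tau, against 5.46 RPKM in Trem2+/+ cells. Itgax, which encodes the integrin subunit CD11c, was last or next to last everywhere, at 5.51 to 26.6 RPKM.

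The members are spread over several chromosomes (GRCm38 coordinates from the count table). Of the secreted and lysosomal proteins, the table places Cst7 (ENSMUSG00000068129) on chromosome 2, 150570415 to 150578944, on the plus strand. It places Spp1 (ENSMUSG00000029304) on chromosome 5, 104435118 to 104441050, on the plus strand, Lgals3 (ENSMUSG00000050335) on chromosome 14, 47367751 to 47386160, on the plus strand, and Lpl (ENSMUSG00000015568) on chromosome 8, 68880491 to 68907448, on the plus strand. Of the receptors, it places Clec7a (ENSMUSG00000079293) on chromosome 6, 129461591 to 129472779, on the minus strand, Axl (ENSMUSG00000002602) on chromosome 7, 25757273 to 25788705, on the minus strand, and Itgax (ENSMUSG00000030789) on chromosome 7, 128129547 to 128150657, on the plus strand. The tetraspanins and Gpnmb follow, with Cd9 (ENSMUSG00000030342) on chromosome 6, 125460266 to 125494791, on the minus strand, Cd63 (ENSMUSG00000025351) on chromosome 10, 128900989 to 128912822, on the plus strand, and Gpnmb (ENSMUSG00000029816) on chromosome 6, 49036546 to 49070929, on the plus strand.

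Promoters are shown for 4 members that moved in opposite directions with tau, Cst7 and Axl, which rose in Trem2+/+ cells, and Cd9 and Itgax, which fell. The sequences are from RefSeq (GRCm38.p6), cover 250 bases before to 50 bases after the annotated start of the gene, run 5′ to 3′ on the gene's strand, and carry in capitals every match on either strand to 7 short motifs. Their positions are chr2:150570165-150570464 on the plus strand for Cst7, chr7:25788684-25788983 on the minus strand for Axl, chr6:125494711-125495010 on the minus strand for Cd9 and chr7:128129300-128129599 on the plus strand for Itgax.
Cst7: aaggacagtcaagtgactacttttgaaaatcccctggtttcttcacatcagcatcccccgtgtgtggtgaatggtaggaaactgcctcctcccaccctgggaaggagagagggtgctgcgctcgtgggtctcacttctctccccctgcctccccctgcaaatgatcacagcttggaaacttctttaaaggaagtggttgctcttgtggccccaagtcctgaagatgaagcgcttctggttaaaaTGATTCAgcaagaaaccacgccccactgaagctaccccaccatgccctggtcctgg
Axl: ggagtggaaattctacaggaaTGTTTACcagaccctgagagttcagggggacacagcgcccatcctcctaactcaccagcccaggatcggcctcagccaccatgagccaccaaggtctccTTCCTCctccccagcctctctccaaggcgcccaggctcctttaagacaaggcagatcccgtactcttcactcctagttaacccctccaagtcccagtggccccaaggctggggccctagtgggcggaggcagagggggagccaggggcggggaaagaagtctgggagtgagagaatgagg
Cd9: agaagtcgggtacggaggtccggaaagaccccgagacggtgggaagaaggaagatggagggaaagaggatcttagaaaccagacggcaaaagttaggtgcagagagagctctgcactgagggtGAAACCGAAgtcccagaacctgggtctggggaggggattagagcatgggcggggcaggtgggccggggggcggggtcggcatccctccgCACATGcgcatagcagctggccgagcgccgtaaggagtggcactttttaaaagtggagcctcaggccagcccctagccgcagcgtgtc
Itgax: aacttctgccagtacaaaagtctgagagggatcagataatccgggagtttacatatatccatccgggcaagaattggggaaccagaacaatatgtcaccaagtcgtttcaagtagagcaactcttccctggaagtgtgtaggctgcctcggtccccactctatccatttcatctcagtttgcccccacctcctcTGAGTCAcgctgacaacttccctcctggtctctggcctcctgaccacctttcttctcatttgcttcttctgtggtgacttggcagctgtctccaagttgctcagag

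The AP-1 motif TGANTCA was found in Cst7, Itgax and Gpnmb, and in 7.93% of the 27025 genes with a promoter in the table. In Cst7 (TGATTCA) it began 6 bases before the start and reached the start base. In Itgax (TGAGTCA) it began 56 bases before, and in Gpnmb (TGACTCA) at base 9 with the start as base 1. The FOXO motif GTAAACA was found once, in Axl, in the reverse direction 229 bases before the start, against 3.55% of all genes. The core GAGGAA bound by PU.1, the master transcription factor of macrophages, was found in Spp1, Clec7a, Axl and Cd63 and in 28.3% of all genes. The interferon element core GAAANNGAA was found in Spp1 and Cd9 and in 8.57% of all genes, and the M-box CATGTG, a site of the MITF and TFE family, in Cd9 and in 14.1% of all genes. The E-box CACGTG (7.24% of all genes) and the GAS motif TTCNNNGAA (8.47%) matched in 0 of the 9 members with a promoter. These matches describe the letters in this window. For Cd63 and Lgals3 the RefSeq start lay 8356 and 6109 bases from the start of the gene in the count table, so their windows lie at another annotated start.

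The addition of tau fibrils to Trem2+/+ microglia raised Cst7 and Axl and lowered the other 8 members. That was a call for 10 of 10, a count on which the choice of members bears. Of all genes tested 26.5% were called, 14.4% higher and 12.1% lower. Cst7 measured 43.4, 44.3 and 48.9 CPM in Trem2+/+ cells with tau, against 3.38, 4.13 and 8.64 CPM in Trem2+/+ cells. Axl, which encodes a receptor tyrosine kinase for bridging molecules on dying cells, measured 1503, 1541 and 1301 CPM with tau, against 526.8, 521.8 and 289.3 CPM without. All libraries with tau lay above all without for both genes. The log2 fold changes were 3.10 for Cst7 (SE 0.264, adjusted p = 1.75e-07, edgeR quasi-likelihood test), an 8.59-fold rise, and 1.70 for Axl (SE 0.179, adjusted p = 2.07e-06), a 3.25-fold rise. They were 3.58 and 1.45 without both length-shifted libraries, when all 10 members were again called, against 41.4% of all genes. In bulk RNA, fewer cells with a transcript and less of it per cell cannot be told apart.

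The largest falls among the members in Trem2+/+ cells were in Cd9 and Spp1. Cd9, a tetraspanin of the cell surface and of extracellular vesicles, measured 155.3, 143.3 and 167.6 CPM in Trem2+/+ cells with tau, against 600.8, 546.1 and 968.9 CPM in Trem2+/+ cells, a 4.54-fold fall (log2 change -2.18, SE 0.191, adjusted p = 2.51e-07). Spp1 measured 2959, 3194 and 3334 CPM with tau, against 10299, 8590 and 17789 CPM without, a 3.87-fold fall (log2 change -1.95, SE 0.213, adjusted p = 3.25e-06). The groups stayed apart for both genes, and the high values without tau were those of the length-shifted replicate 3. The log2 changes were -1.90 for Cd9 and -1.59 for Spp1 without both length-shifted libraries. Of the counts of Cd9, 0.373% as many fell on an antisense gene that overlaps it, and strand is not stated for the counting.

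Lgals3, Itgax, Cd63 and Lpl fell by amounts between those of Spp1 and of the weakest members. Lgals3 measured 1740, 1802 and 1529 CPM in Trem2+/+ cells with tau, against 3290, 3105 and 7092 CPM in Trem2+/+ cells (log2 change -1.41, or -0.93 without both length-shifted libraries). Itgax measured 59.3, 48.2 and 52.3 CPM with tau, against 160.1, 147.2 and 75.9 CPM without (-1.26, or -1.54). Here the length-shifted library held the low value and not the high one. Lpl, lipoprotein lipase, which frees fatty acids from triglycerides, measured 2156, 1996 and 2401 CPM with tau, against 4353, 3586 and 4559 CPM without (-0.93, or -0.87). Cd63, a tetraspanin of late endosomes and lysosomes, measured 818.8 to 834.2 CPM with tau, against 1138, 1152 and 2913 CPM without (-1.07, or -0.49). The length-shifted library held the 1 high value of Cd63 and Lgals3 among the libraries without tau.

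Clec7a, which encodes the beta-glucan receptor dectin-1, and Gpnmb gave the smallest falls. Clec7a measured 802.8, 807.5 and 918.9 CPM in Trem2+/+ cells with tau, against 1277, 1098 and 1453 CPM in Trem2+/+ cells (log2 change -0.60, SE 0.132). Gpnmb measured 9937, 9722 and 8177 CPM with tau, against 16386, 14991 and 9876 CPM without, and was the 1 member of 10 whose groups overlapped, where 36.1% of all genes had groups apart (-0.57, SE 0.148, adjusted p = 0.00945). The Gpnmb call was lost without Trem2+/+ with tau replicate 3 (-0.48), while the log2 change was -0.77 without both length-shifted libraries and that of Clec7a -0.51. Fitted on these 6 libraries alone, 2 members rose and 4 fell, against 10.5% of all genes called, and the calls of Lgals3, Cd63, Clec7a and Gpnmb were lost (adjusted p = 0.0502, 0.15, 0.0819 and 0.203).

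**Figure D2:**
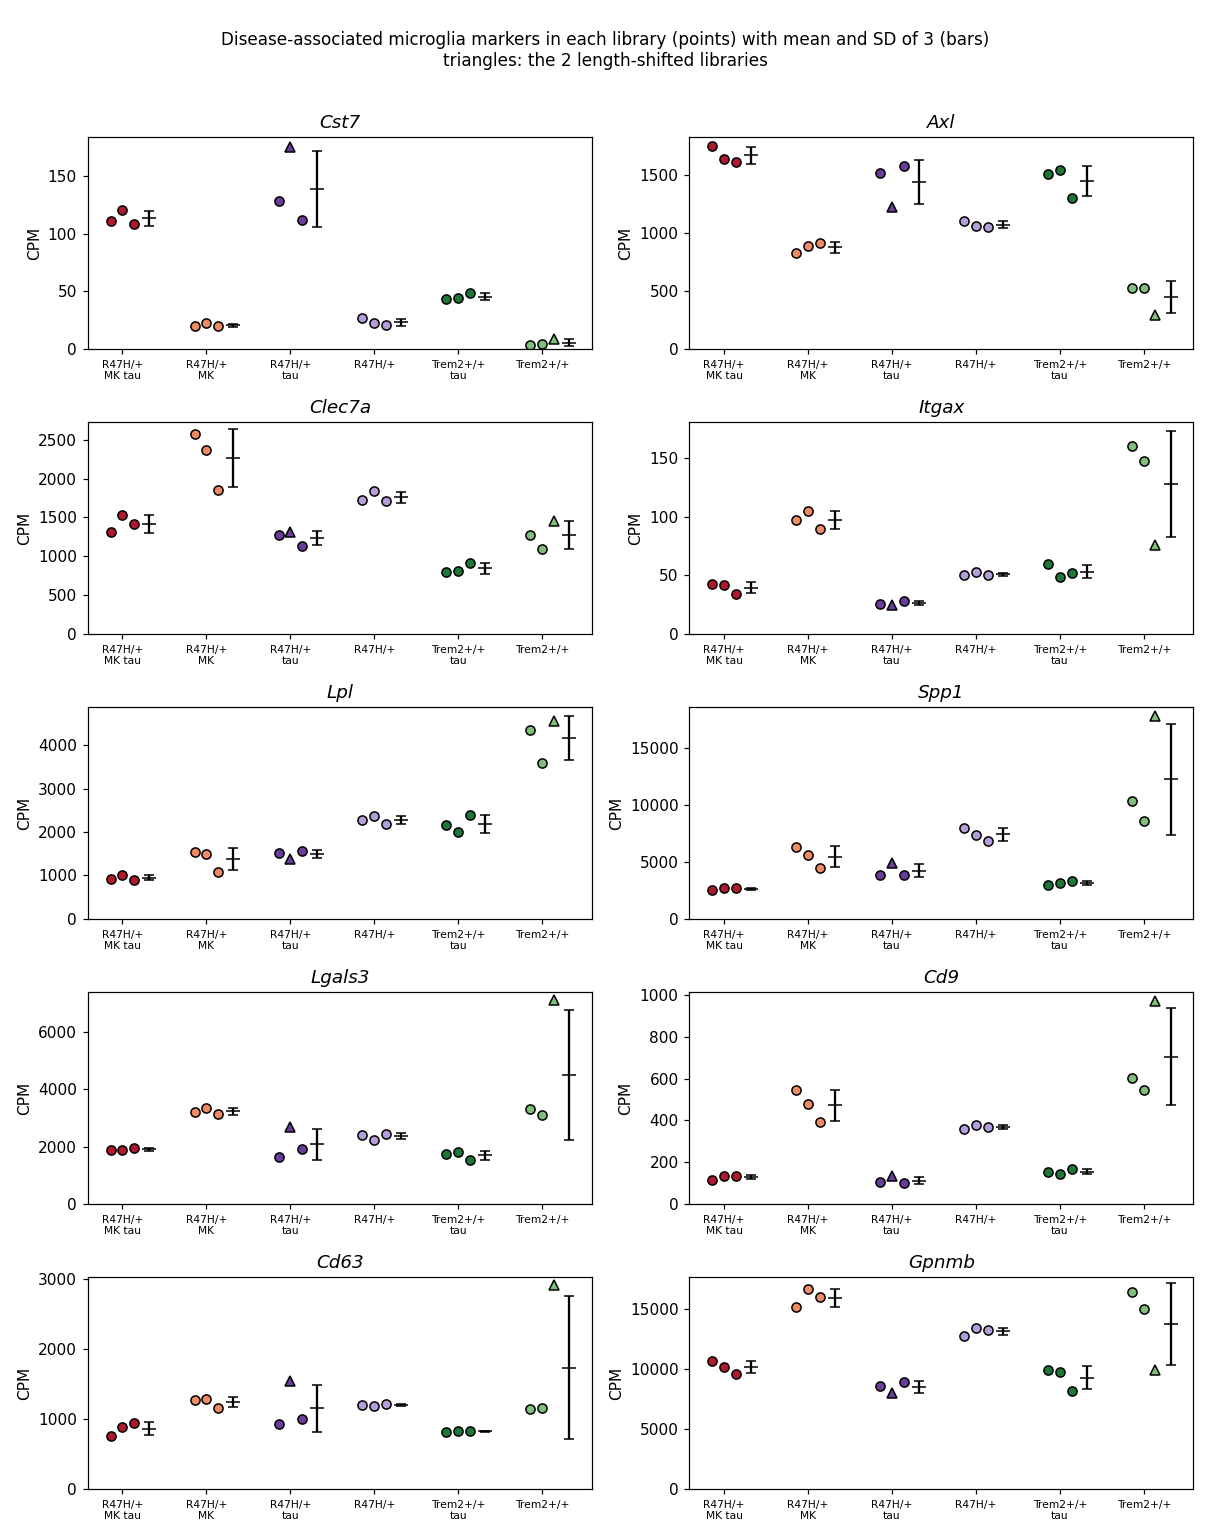
CPM of each member in every library, in groups left to right of R47H/+ with MK-2206 and tau, R47H/+ with MK-2206, R47H/+ with tau, R47H/+, Trem2+/+ with tau and Trem2+/+; points are libraries, triangles the length-shifted ones, and bars the mean and SD (n = 3). Cst7 and Axl stand higher with tau than without in each background, and Cd9 and Spp1 lower.

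In R47H/+ microglia tau raised Cst7 and lowered 6 members, Cd9, Itgax, Spp1, Gpnmb, Lpl and Clec7a, against 27.6% of all genes called, 15.0% higher and 12.6% lower. The groups did not overlap for 8 of the 10, as for 49.8% of all genes. All 10 were called without both length-shifted libraries, Cst7 and Axl higher and 8 lower, against 42.8% of all genes. Cst7 measured 129.1, 175.5 and 111.8 CPM in R47H/+ cells with tau, against 26.5, 22.3 and 20.6 CPM in R47H/+ cells, a 5.99-fold rise (log2 change 2.58, SE 0.249, adjusted p = 9.54e-07). Cd9 measured 103.9, 132.0 and 99.0 CPM with tau, against 356.8, 377.8 and 367.3 CPM without, a 3.29-fold fall (log2 change -1.72, SE 0.189). The groups stayed well apart for both genes, and without both length-shifted libraries the log2 changes were 2.36 for Cst7 and -1.87 for Cd9.

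Among the secreted proteins and lipid enzymes, Spp1 measured 3871, 4883 and 3893 CPM in R47H/+ cells with tau, against 7970, 7390 and 6865 CPM in R47H/+ cells (log2 change -0.81, SE 0.207, adjusted p = 0.0076). Lpl measured 1528, 1384 and 1564 CPM with tau, against 2286, 2363 and 2178 CPM without (-0.61, SE 0.135). They stood at -0.95 for Spp1 and -0.57 for Lpl without both length-shifted libraries. Lgals3 measured 1644, 2695 and 1901 CPM with tau, against 2390, 2239 and 2435 CPM without, and was not called (-0.18, adjusted p = 0.63). Its groups overlapped through the length-shifted replicate 2, and without both such libraries its log2 change was -0.42 (adjusted p = 7.91e-05).

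Of the receptors, Itgax measured 25.9, 25.1 and 28.5 CPM in R47H/+ cells with tau, against 49.99, 52.5 and 50.4 CPM in R47H/+ cells (log2 change -0.94, SE 0.202). Clec7a measured 1278, 1306 and 1136 CPM with tau, against 1720, 1840 and 1713 CPM without (-0.50, SE 0.132), a call lost without R47H/+ with tau replicate 3 (-0.44). Itgax stood at -0.92 and Clec7a at -0.56 without both length-shifted libraries. Axl measured 1516, 1220 and 1579 CPM with tau, against 1101, 1059 and 1048 CPM without. The groups of Axl did not overlap, but the change was not called (0.43, SE 0.174, adjusted p = 0.0818). It was called without Trem2+/+ replicate 3 (0.44), without both length-shifted libraries (0.52, adjusted p = 2.9e-06) and in these 6 libraries alone (0.42, adjusted p = 0.029).

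The endolysosomal members differed from each other. Gpnmb measured 8587, 7991 and 8954 CPM in R47H/+ cells with tau, against 12772, 13383 and 13235 CPM in R47H/+ cells (log2 change -0.63, SE 0.148, or -0.60 without both length-shifted libraries). Cd63 measured 925.5, 1540 and 999.8 CPM with tau, against 1206, 1190 and 1214 CPM without, and was not called (-0.059, adjusted p = 0.906). Its value turned to 0.078 without R47H/+ with tau replicate 1 and to 0.044 without replicate 3, and to a called -0.34 without both length-shifted libraries (adjusted p = 0.000821).

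Under MK-2206 tau raised Cst7 and Axl and lowered 7 members, against 25.6% of all genes called, 14.3% higher and 11.3% lower, and no library of either group is length-shifted. Cst7 measured 110.9, 120.9 and 109.0 CPM in R47H/+ cells with MK-2206 and tau, against 19.7, 22.3 and 19.7 CPM in R47H/+ cells with MK-2206 (log2 change 2.46, SE 0.248). Axl measured 1750, 1635 and 1613 CPM with tau, against 824.0, 889.4 and 912.0 CPM without (0.93, SE 0.175, adjusted p = 0.000744). Cd9 measured 117.0, 131.7 and 134.8 CPM with tau, against 544.5, 476.2 and 393.5 CPM without (-1.88, SE 0.190). These groups did not overlap for any of the 10 members, as for 55.6% of all genes tested. The log2 changes were 2.45 for Cst7, 0.91 for Axl and -1.90 for Cd9 without both length-shifted libraries, when all 10 members were called, against 48.0% of all genes.

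The other falls under MK-2206 lay between -1.30 for Itgax and -0.54 for Lpl on the log2 scale. Spp1 measured 2557, 2710 and 2700 CPM in R47H/+ cells with MK-2206 and tau, against 6310, 5566 and 4491 CPM in R47H/+ cells with MK-2206 (-1.04, adjusted p = 0.00124). Lgals3 measured 1868 to 1967 CPM with tau, against 3121 to 3357 CPM without (-0.76, SE 0.245, adjusted p = 0.031), a call lost when any 1 of the 6 libraries of these 2 groups was left out (-0.78 to -0.73). Cd63 measured 761.2 to 940.3 CPM with tau, against 1161 to 1285 CPM without, and was not called (-0.53, adjusted p = 0.194). Without Trem2+/+ replicate 3, which lies in neither group but enters the shared estimate of the spread, Cd63 was called at -0.51, and it was called at -0.51 in these 6 libraries alone (adjusted p = 1.49e-05). In the fit without both length-shifted libraries the 7 other falls ran from -1.31 for Itgax, -1.06 for Spp1 and -0.77 for Lgals3 through -0.69 for Clec7a and -0.67 for Gpnmb to -0.55 for Lpl and Cd63.

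**Figure D3:**
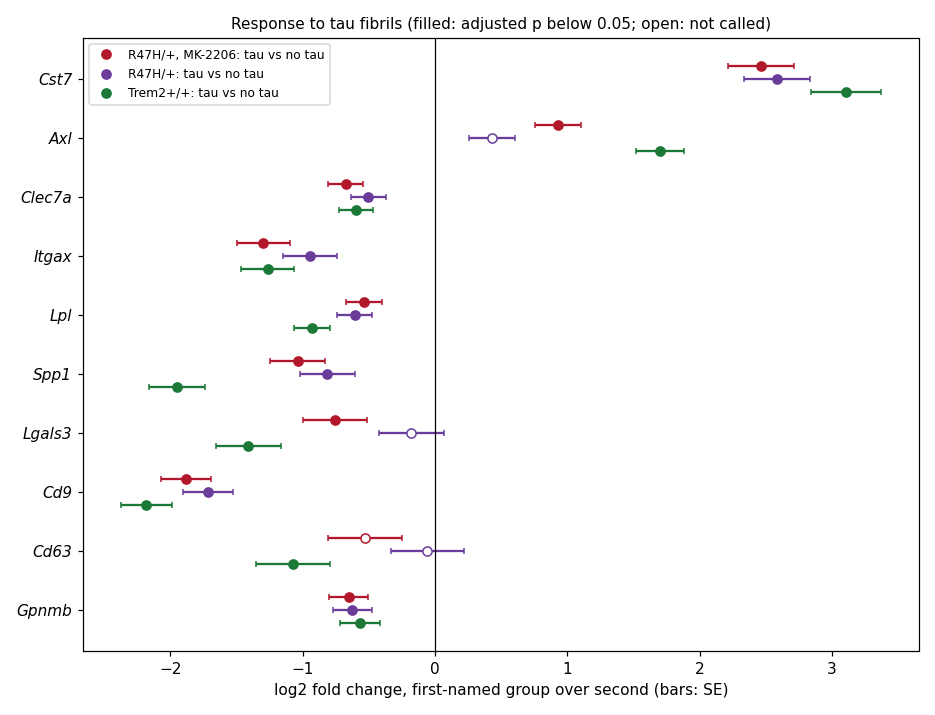
Log2 fold change of each member with tau over without tau, with its SE, in R47H/+ cells with MK-2206, R47H/+ cells and Trem2+/+ cells; filled points have an adjusted p below 0.05. Cst7 and Axl lie right of 0 and the other members left of 0 in all 3 backgrounds, with the points of Axl and Cd63 in R47H/+ cells, of Lgals3 in R47H/+ cells and of Cd63 under MK-2206 open.

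The tau response differed by genotype for 3 of the 10 members, against 5.37% of all genes (2.05% higher and 3.32% lower). This difference was tested as the response in R47H/+ cells minus that in Trem2+/+ cells. The members were picked by how they move with tau, so their choice bears on this count. Axl rose less in R47H/+ cells (difference -1.27 on the log2 scale, SE 0.247, adjusted p = 0.00507), and Spp1 and Lgals3 fell less (1.14, SE 0.292, adjusted p = 0.0307, and 1.23, SE 0.345, adjusted p = 0.0492). Axl ended at like levels with tau, at 1438 ± 191.3 CPM in R47H/+ cells and 1448 ± 129.0 CPM in Trem2+/+ cells (SD, n = 3 each), and differed before tau. The calls of Spp1 and Lgals3 were lost in the 12 libraries alone (adjusted p = 0.11 and 0.181), and when any 1 of 7 libraries was left out for Spp1 (1.02 to 1.19) and any 1 of 14 for Lgals3 (1.01 to 1.31). The 7 libraries are all 3 of Trem2+/+ with tau, all 3 of R47H/+ and R47H/+ with tau replicate 2. For Lgals3 they are those 7 with R47H/+ with tau replicate 3 and the 6 MK-2206 libraries.

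In the fit without both length-shifted libraries 5 of the 10 were called, against 11.9% of all genes. The differences of Axl, Spp1 and Lgals3 were smaller, at -0.93, 0.65 and 0.51, while those of Cst7 (-1.22, adjusted p = 3.2e-05) and Itgax (0.62, adjusted p = 0.00472) were larger and were called too. With all libraries Cst7 and Itgax stood at -0.52 (95% interval -1.25 to 0.21) and 0.32 (-0.28 to 0.92), and both were also called without Trem2+/+ replicate 3 alone (-0.97 and 0.62). Cd63 was not called (1.01, adjusted p = 0.151) but was without Trem2+/+ replicate 1 (1.25). Its difference was 0.45 without Trem2+/+ replicate 3 and 0.15 without both length-shifted libraries, and was called in neither case. Cd9, Lpl, Clec7a and Gpnmb were not called either way, with 95% intervals, over all libraries, of -0.088 to 1.02 for Cd9, -0.080 to 0.73 for Lpl, -0.30 to 0.49 for Clec7a and -0.50 to 0.39 for Gpnmb.

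The tau response of R47H/+ cells with MK-2206 minus that without was called for 0 of the 10 members, against 0.377% of all genes, 0.181% higher and 0.196% lower. The difference in response lay between -0.58 for Lgals3 (95% interval -1.31 to 0.15) and 0.50 for Axl (-0.02 to 1.02). With an unadjusted p under 0.05 there were also 0 of 10, and DESeq2 called 0. Without both length-shifted libraries Axl (0.39, adjusted p = 0.0173) and Lgals3 (-0.35, adjusted p = 0.0425) were called, against 4.94% of all genes.

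Without tau, R47H/+ microglia already differed from Trem2+/+ microglia in 8 of the 10 members, 3 higher and 5 lower, against 15.1% of all genes called, 8.22% higher and 6.83% lower. The groups did not overlap for 8 of the 10, as for 31.4% of all genes. From the values above, Cst7 averaged 23.2 ± 3.05 CPM in R47H/+ cells and 5.38 ± 2.85 CPM in Trem2+/+ cells (SD, n = 3 each), a 4.37-fold rise (log2 change 2.13, SE 0.259, adjusted p = 2.29e-05). Axl averaged 1069 ± 27.7 CPM in R47H/+ cells and 446.0 ± 135.7 CPM in Trem2+/+ cells (1.26, SE 0.177, adjusted p = 9.94e-05), and Clec7a 1758 ± 71.6 CPM in R47H/+ cells and 1276 ± 177.5 CPM in Trem2+/+ cells (0.46, SE 0.132, adjusted p = 0.0254). No library of one group overlapped the other for these 3 genes. These values share the R47H/+ and Trem2+/+ control libraries with the tau responses above.

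The falls with genotype were led by Itgax and included Spp1 and Lgals3. Itgax averaged 51.0 ± 1.36 CPM in R47H/+ cells and 127.7 ± 45.4 CPM in Trem2+/+ cells, a 2.51-fold fall (log2 change -1.33, SE 0.201, adjusted p = 0.000219). Lpl averaged 2275 ± 92.7 CPM in R47H/+ cells and 4166 ± 512.6 CPM in Trem2+/+ cells (-0.87, SE 0.135), and Cd9 367.3 ± 10.5 CPM in R47H/+ cells and 705.3 ± 230.0 CPM in Trem2+/+ cells (-0.94, SE 0.185). Lgals3 averaged 2355 ± 102.2 CPM in R47H/+ cells and 4496 ± 2250 CPM in Trem2+/+ cells (-0.93, adjusted p = 0.0166), and Spp1 7408 ± 552.8 CPM in R47H/+ cells and 12226 ± 4892 CPM in Trem2+/+ cells (-0.72, adjusted p = 0.0263). Gpnmb and Cd63 were not called (-0.067, adjusted p = 0.785, and -0.53, adjusted p = 0.212).

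Trem2+/+ replicate 3 decided the size of several of these values. Without both length-shifted libraries, Cst7 rose by more (2.62), the falls of Lgals3, Spp1 and Cd9 were -0.44, -0.35 and -0.64, that of Itgax -1.59, and Gpnmb was called lower (-0.26, adjusted p = 0.0105), so that 3 were higher and 6 lower, against 28.9% of all genes called. Axl, Clec7a and Lpl then stood at 1.03, 0.57 and -0.80. Without Trem2+/+ replicate 3 alone, Spp1 was no longer called (-0.37), Gpnmb was called (-0.28) and Cd63 turned to 0.049. Spp1 and Clec7a also lost their calls when any 1 of the R47H/+ libraries was left out (-0.78 to -0.67 for Spp1 and 0.42 to 0.48 for Clec7a), Clec7a also without Trem2+/+ replicate 2 (0.37), and Lgals3 without R47H/+ replicate 1 or 2 (-0.94 and -0.90). In these 6 libraries alone only Cst7, Axl and Lpl were called (adjusted p = 0.0394, 0.049 and 0.0378), against 3.81% of all genes.

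With tau present, 4 members differed between the genotypes, against 9.50% of all genes (5.25% higher and 4.24% lower), Cst7 and Clec7a higher and Itgax and Lpl lower in R47H/+ cells. The groups did not overlap for 7 of the 10, as for 33.7% of all genes. Cst7 averaged 138.8 ± 32.9 CPM in R47H/+ cells with tau and 45.6 ± 2.94 CPM in Trem2+/+ cells with tau (log2 change 1.61, SE 0.239, adjusted p = 0.000464), and Clec7a 1240 ± 91.5 CPM in R47H/+ cells with tau and 843.0 ± 65.7 CPM in Trem2+/+ cells with tau (0.56, adjusted p = 0.0129). Itgax averaged 26.5 ± 1.77 CPM in R47H/+ cells with tau and 53.2 ± 5.60 CPM in Trem2+/+ cells with tau (-1.01, adjusted p = 0.00437), and Lpl 1492 ± 95.3 CPM in R47H/+ cells with tau and 2184 ± 203.7 CPM in Trem2+/+ cells with tau (-0.55, adjusted p = 0.0159). Cst7, Clec7a, Itgax and Lpl thus had the same direction of difference with and without tau.

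Axl was not called with tau, with a log2 change of -0.010 (95% interval -0.38 to 0.36, adjusted p = 0.979) and overlapping groups. Without both length-shifted libraries Cd63 (0.22), Spp1 (0.29) and Cd9 (-0.62) were called as well, 7 of 10 in all against 23.3% of all genes, and Cst7, Clec7a, Itgax and Lpl stood at 1.40, 0.52, -0.97 and -0.50. The same 3 were called without Trem2+/+ replicate 3 alone, at 0.50, 0.43 and -0.46. The call of Clec7a was lost without Trem2+/+ with tau replicate 1 or 2 or R47H/+ with tau replicate 2 (0.52 to 0.53), and that of Lpl without Trem2+/+ with tau replicate 1 or 3 or R47H/+ with tau replicate 2 (-0.56 to -0.48).

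In R47H/+ cells without tau, MK-2206 raised Itgax and lowered Lpl, 2 of 10 members called against 2.55% of all genes, 1.19% higher and 1.36% lower. Itgax averaged 97.3 ± 7.70 CPM in R47H/+ cells with MK-2206 and 51.0 ± 1.36 CPM in R47H/+ cells, a 1.91-fold rise (log2 change 0.93, SE 0.199, adjusted p = 0.0184), and no library of one group overlapped the other. Lpl averaged 1374 ± 254.2 CPM in R47H/+ cells with MK-2206 and 2275 ± 92.7 CPM in R47H/+ cells, a 1.66-fold fall (-0.73, SE 0.135, adjusted p = 0.00749). Beside these, the genotype comparison, which shares the R47H/+ libraries, gave -1.33 for Itgax and -0.87 for Lpl, and Trem2+/+ cells held 127.7 ± 45.4 CPM of Itgax and 4166 ± 512.6 CPM of Lpl. The call of Itgax was lost without any 1 of R47H/+ replicates 1, 2 and 3 and R47H/+ with MK-2206 replicates 1 and 2 (0.87 to 0.95).

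The number of members called with MK-2206 without tau differed with the libraries that entered the fit. None of the length-shifted libraries belongs to these 2 groups, yet without them 5 members were called higher and 3 lower, against 13.9% of all genes called. A fit of these 6 libraries alone also gave 5 higher and 3 lower, against 18.1% of all genes. Without the length-shifted libraries Itgax stood at 0.94 and Lpl at -0.72. The added calls there were Lgals3 (0.46), Cd9 (0.37), Clec7a (0.37) and Gpnmb (0.29) higher and Spp1 (-0.43) and Axl (-0.28) lower. The groups did not overlap for 8 of the 10 members, as for 32.6% of all genes tested. With all libraries these 6 stood at 0.45, 0.36, 0.36, 0.28, -0.44 and -0.29 in the same order of genes, and with Trem2+/+ replicate 3 alone left out Lgals3, Gpnmb and Spp1 were called (0.46, 0.29 and -0.43). Cst7 and Cd63 were not called either way, with 95% intervals of -0.68 to 0.34 and -0.54 to 0.63 with all libraries.

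With tau present, MK-2206 lowered Lpl alone among the members, against 3.04% of all genes called, 1.64% higher and 1.40% lower. The groups did not overlap for 6 of the 10, as for 27.7% of all genes. Lpl averaged 947.4 ± 53.8 CPM in R47H/+ cells with MK-2206 and tau and 1492 ± 95.3 CPM in R47H/+ cells with tau (log2 change -0.66, SE 0.135, adjusted p = 0.0142), the lowest Lpl of the 6 groups. Spp1 averaged 2655 ± 85.7 CPM in R47H/+ cells with MK-2206 and tau and 4215 ± 578.4 CPM in R47H/+ cells with tau, with no overlap, and was not called (-0.67, adjusted p = 0.105). It was called in these 6 libraries alone (adjusted p = 0.0329), and without both length-shifted libraries (-0.54), when Lpl stood at -0.70 and Itgax (0.55) and Cd9 (0.34) were called higher, 4 of 10 against 1620 of all 13498 genes tested in that fit. Without Trem2+/+ replicate 3 alone, Spp1, Itgax and Gpnmb were called (-0.65, 0.60 and 0.27). The call of Lpl was lost without R47H/+ with tau replicate 3 or R47H/+ with MK-2206 and tau replicate 1 or 3 (-0.64 to -0.62).

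**Figure D4:**
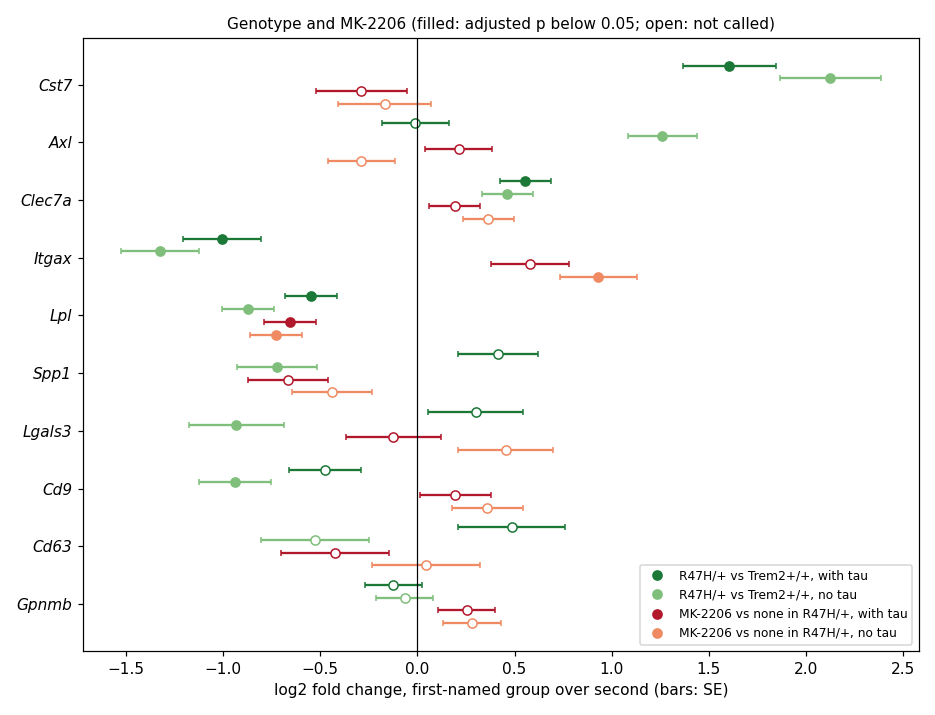
Log2 fold change of each member with its SE for R47H/+ over Trem2+/+ cells, with and without tau, and for MK-2206 over none in R47H/+ cells, with and without tau; filled points have an adjusted p below 0.05. Cst7 and Clec7a lie right of 0 and Itgax and Lpl left of 0 for genotype in both states, and Lpl is the 1 member with filled points in all 4 comparisons.

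Across the 18 libraries, the log2 CPM of 28 of the 45 pairs of members had a Pearson's r above 0 and 17 below. This is a description over libraries that fall into 6 treatment groups and share their depth scaling. Cst7 and Axl went together (r = 0.85, and 0.96 over the 16 libraries without the length-shifted ones) and against Cd9 (r = -0.90 and -0.91), Spp1 and Itgax. Gpnmb and Lgals3 had an r of 0.47 over 18 libraries and 0.97 over 16, and Gpnmb and Cd63 0.19 and 0.82. Lpl had its highest r with Spp1 (0.78) and Clec7a with Gpnmb (0.61), and Lpl and Clec7a had an r of -0.23 with each other.

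**Figure D5:**
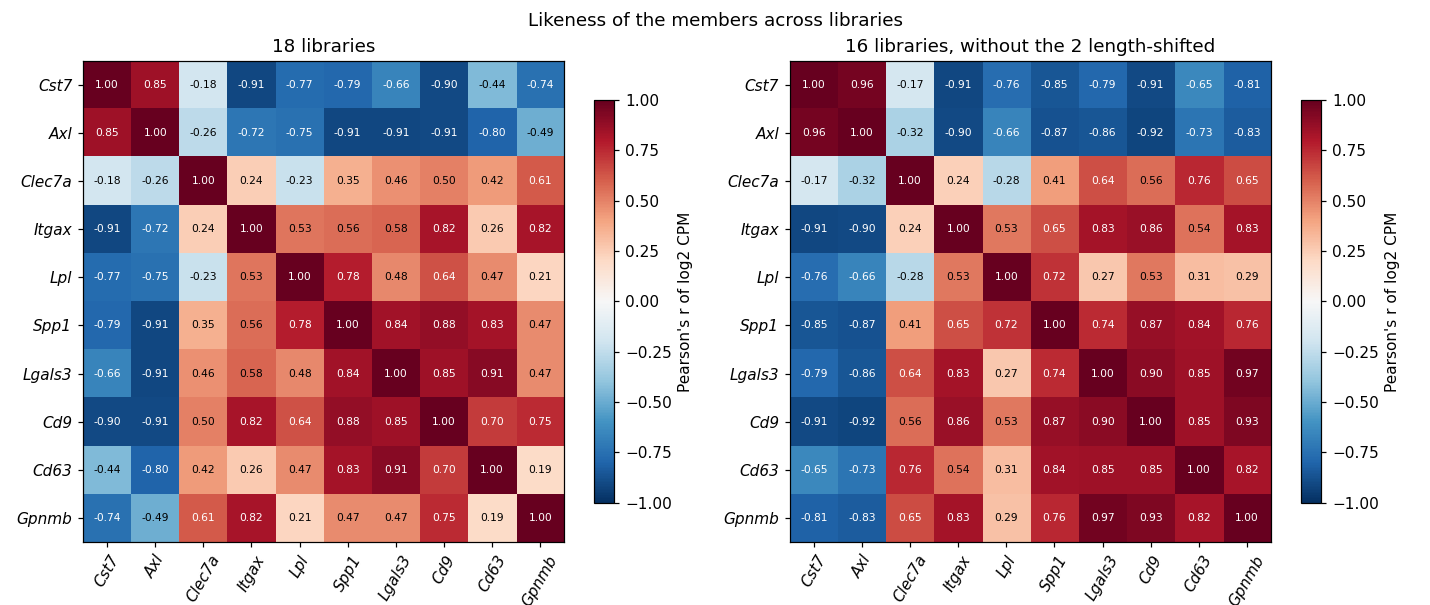
Pearson's r of log2 CPM between members over all 18 libraries (left) and over the 16 that are not length-shifted (right), in red above 0 and blue below. Cst7 and Axl have an r below 0 with each of the other members, nearest to 0 for Clec7a (-0.18 and -0.26 on the left). The r of Gpnmb with Lgals3 is 0.47 on the left and 0.97 on the right.

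Of 9878 genes searched, those most like each member over the 18 libraries differed from member to member. Cst7 was most like the Fc receptor Fcgr4 and the ISG15 protease Usp18 (r = 0.99 each), and Tent4a was among the genes most like Axl (r = 0.99). Itgax was most like the amino acid transporter Slc1a5 and Agap1 (r = 0.97 each), Lpl like Kctd12 and Wdr36 (0.96 and 0.95), Spp1 like Snx24 and Nap1l1 (0.98 and 0.95), and Cd9 like Adssl1 and Tnfsf12 (0.98 each). Gpnmb was most like Mical1 and the insulin receptor substrate Irs2 (0.97 each), Clec7a like Tspan7 and Nov (0.95 and 0.92), Cd63 like Eif1b and Ech1 (0.97 each) and Lgals3 like the lysosomal protease Ctsd and Pqlc1 (0.97 each). The libraries carry the group differences and the length shift, so these values describe shared patterns over the groups and libraries.

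A further 30 genes of the same state were counted beside the members, all of them tested. With tau in R47H/+ cells 6 of the 30 rose and 8 fell (median log2 change -0.10, against -6.13e-05 over all genes tested). Ch25h, which makes the oxysterol 25-hydroxycholesterol, rose by 4.70 and the chemokines Ccl4 and Ccl3 by 1.69 and 0.88, while Mamdc2, Ank, Cd83 and Timp2 fell (log2 changes -4.78, -1.80, -1.13 and -0.995). With tau in Trem2+/+ cells 2 of the 30 rose, Ch25h (2.28) and the growth factor Csf1 (1.24), and 15 fell (median -0.51, against -0.043), among them Mamdc2, Cd83, Cadm1 and Ank (-4.12, -1.73, -1.24 and -1.32). Under MK-2206, 4 rose and 11 fell with tau (median -0.34, against -0.026), Ch25h at 5.06 and Mamdc2 at -3.95. Of all genes tested, tau gave a call for 25.6% under MK-2206, 27.6% in R47H/+ cells and 26.5% in Trem2+/+ cells. The genotypes differed in the tau response for 5 of the 30, against 5.37% of all genes called. Ch25h (2.43), Ccl6 (1.07), Plin2, a coat protein of lipid droplets (0.83), and Cd83 (0.61) were higher and Csf1 (-1.10) lower. MK-2206 changed the tau response for 0 of the 30, against 0.377% of all genes.

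Between genotypes without tau, 4 of the 30 were higher in R47H/+ cells and 4 lower, against 15.1% of all genes called. Higher were Csf1 (log2 change 1.87), Ccl4 (1.00), the MHC class I subunit B2m (0.92) and Cd83 (0.40). Lower were Mamdc2 (-1.82), Trem2 (-1.44), the lysozyme gene Lyz2 (-0.81) and Timp2 (-0.37). With tau 9 of the 30 were higher and 4 lower, against 9.50% of all genes called. The higher ones were led by Ch25h (2.47), Ccl4 (1.96), Ccl3 (1.51) and Cd83 (1.01). Lower were Mamdc2 (-2.48), Trem2 (-1.33), Ank (-0.73) and Timp2 (-0.55). The Trem2 differences between genotypes may reflect which allele was counted, as the hTrem2 allele may not enter the count, and this was not tested. MK-2206 without tau raised Mamdc2 (1.88) and lowered Ch25h (-2.24) in R47H/+ cells, and with tau raised Mamdc2 (2.72) and Ank (0.71) and lowered Ch25h (-1.88). Without both length-shifted libraries more of the 30 were called, and so were more of all genes. With tau these were 28 under MK-2206 (48.0% of all genes), 22 in R47H/+ cells (42.8%) and 26 in Trem2+/+ cells (41.4%). Between genotypes they were 18 with tau (23.3%) and 17 without (28.9%), and for MK-2206 12 with tau (1620 of 13498 genes) and 14 without (13.9%). The genotype interaction was called for 14 of the 30 (11.9% of all genes) and that of MK-2206 for 3 (4.94%).

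Of 15 homeostatic microglia genes 13 were tested. With tau 2 rose and 7 fell in R47H/+ cells (27.6% of all genes called) and 4 rose and 3 fell in Trem2+/+ cells (26.5%). Without tau 8 were higher and 0 lower in R47H/+ than in Trem2+/+ cells (15.1%). The oligodendrocyte lineage markers, mostly Mbp, summed to 67.7 to 84.7 CPM in R47H/+ cells with tau, against 125.6 to 137.4 CPM in R47H/+ cells, and to 111.2 to 112.5 CPM in Trem2+/+ cells with tau, against 140.0 to 181.1 CPM in Trem2+/+ cells. Under MK-2206 they summed to 88.7 to 91.5 CPM with tau, against 135.1 to 150.1 CPM without. Of the 8 markers, 3 fell with tau under MK-2206, 5 in R47H/+ cells and 4 in Trem2+/+ cells, and 0 rose. The shares of all genes called lower were 11.3%, 12.6% and 12.1% in the same order. The markers called thus moved in the direction of the members that fell, and none of the 8 was at 0 in a whole group. The border macrophage, monocyte and granulocyte markers summed to 1206 to 1721 CPM in R47H/+ cells with tau, against 1130 to 1195 CPM in R47H/+ cells. They summed to 1156 to 1204 CPM in Trem2+/+ cells with tau, against 990.4 to 2085 CPM in Trem2+/+ cells. The R47H/+ with tau and Trem2+/+ groups each hold a length-shifted library. The sums hide opposite changes. With tau in R47H/+ cells Ly6c2 and S100a8 were called higher (log2 changes 3.85 and 2.09) and Mrc1 and Ccr2 lower (-1.25 and -0.56). In Trem2+/+ cells Ly6c2 and Ccr2 were called higher (4.96 and 1.22) and Mrc1 lower (-0.52). Under MK-2206 Ly6c2, S100a8 and Ccr2 were called higher with tau (4.89, 1.73 and 1.06) and Mrc1 lower (-0.87). Of the 8 astrocyte markers 6 were tested. With tau 2 rose and 2 fell under MK-2206 (25.6% of all genes called). In R47H/+ cells 2 rose and 1 fell (27.6%), and in Trem2+/+ cells 1 rose and 1 fell (26.5%). Without tau Aldh1l1 was higher in R47H/+ than in Trem2+/+ cells (0.89), and Aldoc, Fabp7 and S100b were lower (-1.42, -1.70 and -1.80), against 15.1% of all genes. The part of any of these lists in the results was not tested.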

How the data were processed

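The values come from 1 table of raw counts per gene for 18 libraries, deposited by the authors as whole numbers with no normalization. Per the submitters' processing notes, STAR, featureCounts and DESeq2 were used with GRCm38 (mm10), while versions, settings and the strand of counting are not given in the sources used here. The other deposited columns used were coordinates and gene length. Of 54409 identifiers found in GENCODE M21, 53499 lay at identical coordinates there, as did all 10 members. The table gives Clec7a the biotype of a polymorphic pseudogene.

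The model was fitted in edgeR 4.0.16 (R 4.3.3, limma 3.58.1), and tables were described with Python 3.11.15. After filterByExpr and TMM scaling, 1 quasi-likelihood fit covered all 6 groups (12 residual degrees of freedom). For 7 comparisons and 2 interactions the two-sided F-test was adjusted by Benjamini-Hochberg over 13267 genes, and genes under 0.05 were called. CPM values are TMM-scaled, log2 CPM used a prior count of 2, and intervals are at 95%. The SE is the absolute log2 fold change divided by the square root of F. It and the intervals built from it are therefore approximate. Libraries of a group differed by more than counting error, with a chi-square per gene of 3.34 to 269.6.

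The members and lists were chosen with earlier results of these data known. Named genes were the 10 members, Trem2, up to 4 higher and 4 lower of 30 other DAM genes with the smallest p per comparison, and the 2 genes most correlated with each member, without clone, Rik and Gm symbols and pseudogenes; for Axl, 1 of the 2 is not reported here. Alternatives were another scaling (RLE), no count filter, DESeq2 1.42.0, the libraries of each comparison fitted alone, a replicate block, and omission of both length-shifted libraries or of each library. The fit was also tested on simulated data, which held no length-shifted library and so do not bear on that shift.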

Additional observations from a re-analysis of the deposited data

Results flagged for a closer look

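The difference in tau response between the genotypes, R47H/+ minus Trem2+/+, passed its own test for 3 members (edgeR quasi-likelihood interaction test with Benjamini-Hochberg adjustment). The choice of members bears on this count. The difference was 1.14 for Spp1 and 1.23 for Lgals3, which fell less in R47H/+ cells, and -1.27 for Axl, which rose less. Every alternative fit kept the sign of these 3 values. The calls of Spp1 and Lgals3 were lost in the 12 libraries of the comparison alone (adjusted p = 0.11 and 0.181), and when any 1 of 7 libraries was left out for Spp1 and any 1 of 14 for Lgals3. Without both length-shifted libraries the 3 values were 0.65, 0.51 and -0.93, all called. Groups of 3 libraries were not tested for a single member value far from the others.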

How the results depend on the processing

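Of 90 member values, 90 kept their direction and call with no count filter, 89 with RLE scaling and 89 with DESeq2. The exception in both was the uncalled Axl difference between genotypes with tau, at 0.0027 and 0.0030. With the compared groups alone 9 values gained a call and 11 lost one, and without both length-shifted libraries 21 gained one and 6 uncalled values changed sign. Those 6 were Cd63 between genotypes without tau (0.071), Axl between genotypes with tau (0.094), Lgals3 with MK-2206 under tau (0.11), the genotype interactions of Clec7a (-0.049) and Gpnmb (0.18), and the MK-2206 interaction of Cst7 (0.083). Members called with the compared groups alone were 3 between genotypes without tau (3.81% of all genes called) and 6 for tau in Trem2+/+ cells (10.5%). For MK-2206 they were 8 without tau (18.1%) and 2 with tau, and for the genotype interaction 1. No share of all genes was taken for MK-2206 with tau or the genotype interaction in these fits. Without both length-shifted libraries the members called were 7 between genotypes with tau (23.3% of all genes). For MK-2206 they were 4 with tau (1620 of 13498 genes) and 8 without (13.9%). They were 5 for the genotype interaction (11.9%) and 2 for the MK-2206 interaction (4.94%). The cause was not tested beyond the removal of these libraries. With each library left out in turn, members called ranged from 5 to 8 between genotypes without tau and 2 to 7 with tau. They ranged from 1 to 5 for MK-2206 without tau, 0 to 4 with tau, and 1 to 5 for the genotype interaction. No share of all genes called was taken for these fits, so the ranges are not set against one. Uncalled values that changed sign in turn ranged from -0.28 to 0.075 for Gpnmb and -0.76 to 0.049 for Cd63 between genotypes, -0.32 to 0.078 for Cd63 with tau in R47H/+ cells, -0.081 to 0.096 for Axl between genotypes with tau, -0.27 to 0.11 for Lgals3 with MK-2206 under tau, and -0.20 to 0.17 for Gpnmb in the genotype interaction. In the MK-2206 interaction they ranged from -0.26 to 0.088 for Cst7, -0.072 to 0.17 for Lpl and -0.067 to 0.0083 for Gpnmb. The replicate numbers did not pair the libraries, since deviations of same-numbered libraries correlated at -0.14 to 0.20. With a replicate block 1 member was called in the genotype interaction, as Spp1 and Lgals3 lost their calls, and the other 88 values kept theirs. Counting error weighed most on Cst7, the member with the lowest level, at 3.38 CPM in 1 Trem2+/+ library.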
